A study of Mus musculus with 9 samples.

Results

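The mouse intestinal tract was profiled by RNA sequencing in 8 conditions with dextran sulfate sodium (DSS) and in 1 condition without it, and the genes described here are those whose level lay on 1 side of the library without DSS in all 8 DSS libraries. Of 55468 genes in the deposited table, 17631 averaged 1 FPKM or more (fragments mapped to a transcript, scaled to its length and to the size of the library) over the 9 libraries. Of these, 1466 were higher in all 8 DSS libraries and 1491 were lower in all 8, so 2957 members are described, and the rule was applied to the deposited levels without a test.

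Each condition is represented by 1 library. DSS was offered from day 18 in all conditions but the control. R (day 28) and RR (day 33) came from mice on a normal diet. 1K came from mice on a diet lacking methionine, 2K from mice on a diet lacking tryptophan and niacin, and 3K from mice on a diet lacking all 3 nutrients, each collected at day 28. 1KR, 2KR and 3KR came from mice that received the matching deficient diet until day 28 and the normal diet from then until day 33. The control library C came from mice on normal feed without DSS and was collected at day 34. Neither the hour of collection nor whether a library was made from 1 animal or a pool is given. DSS, the day and hour of collection and the properties of the lone control library therefore cannot be told apart in any difference from C, and the 8 DSS libraries differ among themselves in diet and day.

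DSS is a sulfated polysaccharide that injures the epithelium when mice drink it, which opens the mucosa to bacteria and is followed by an influx of neutrophils and monocytes, a phase of crypt loss and a phase of repair. The gut epithelium also runs a circadian clock. In that loop the factors ARNTL (also called BMAL1) and CLOCK or NPAS2 switch on genes through E-box sequences, among them the Period and Cryptochrome genes, whose proteins block the pair, and Nr1d1 and Nr1d2 (the REV-ERB receptors), which repress Arntl through ROR elements. DBP, TEF and HLF are output factors of the loop that bind D-box sequences, and many genes of sugar, lipid and ion uptake in the gut follow the daily rhythm of feeding.

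The libraries held an estimated 13.6 M to 30.0 M fragments (M for 1000000), with 3KR the shallowest and 25.3 M in C. Small RNAs made up 50.2% of all FPKM in 3KR, 14.2% to 25.6% in the other DSS libraries and 25.9% in C. RNA of neighbouring organs stood out in 2K and 3K. Pancreatic acinar genes made up 10.1% of all FPKM in 3K, 7.59% in 2K, 0.273% to 0.669% in the other DSS libraries and 0.602% in C, and in 2K liver genes made up 6.30% and stomach genes 2.45%. Stomach genes made up 0.000308% to 0.00967% in the other DSS libraries and 0.000474% in C. The absorptive enterocyte list was measured in full, with 23 of 23 genes, and made up 0.951% to 4.38% in the DSS libraries and 1.81% in C, so the libraries bear the epithelial genes their label implies.

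The share of genes higher in all 8 DSS libraries was 8.31% of the genes tested and the share lower in all 8 was 8.46%. Counts of list members in all 8 libraries are to be read against these shares. Differences are given throughout as log2(FPKM + 0.5) in a DSS library minus C, which understates the change of genes with low levels. The smallest difference of a gene is that of the DSS library nearest to C, and the median difference is taken over the 8. Most members lay close to C in at least 1 library, since the median over members of the smallest difference was 0.12 among the higher genes and -0.13 among the lower ones. The median over members of the median difference was 0.58 and -0.59, against 0.0 over all genes tested. A smallest difference of at least 0.5 was met by 147 higher and 130 lower genes. At least 2-fold in all 8 libraries was met by 31 higher genes (0.176%) and 30 lower genes (0.170%). At that threshold, Fabp1 lay just inside with 1.04 and Slc2a2 just outside with 0.97 among the higher genes, and Edn2 with -1.03 and Dab1 with -0.998 stood on either side of it among the lower genes.

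The balance between directions depended on the scaling. Among the genes on 1 side in all 8, 49.6% were higher with the values as deposited, 38.4% after scaling by the median of ratios and 11.7% after scaling to the summed FPKM of protein-coding genes. The median over all genes shifted by -0.07 with the median of ratios and by -0.27 with the protein-coding scaling. With the protein-coding scaling 485 of 17670 genes (2.74%) were higher, all of them among the 1466, and 3654 (20.7%) were lower, among them all 1491 that were lower as deposited. C has the smallest factor in that scaling (0.82, against 0.85 to 1.24 in the DSS libraries), so it raises C against every DSS library. By construction lower genes then stay lower and higher genes can only become fewer, apart from genes that cross the minimum mean. With the median of ratios 6.62% were higher and 10.6% lower. The counts of a list under a scaling are to be read against these shares. Under the protein-coding scaling 3 genes (Dnm1l, Bag6 and Vcp-rs, named after their values were seen) changed sides, and all had a smallest difference of at most 0.03 as deposited. Each of the 30 genes named for the largest smallest difference kept its side under both scalings. These are the first 15 in each direction that reach 5 FPKM in at least 1 library, after predicted genes, pseudogenes, small RNAs, mitochondrial genes, histones and antigen receptor segments were left out. The factors ran from 0.94 to 1.10 (median of ratios) and from 0.82 to 1.24 (protein-coding), too narrow to undo differences of this size. That the 30 kept their side was therefore fixed in advance.

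The counts of the rule can grow but never fall when libraries are left out, so they are no sign of stability. With 2K, 3K and 3KR left out, an alternative chosen after seeing the data, 3428 of 17631 genes (19.4%) were higher and 3449 (19.6%) lower in all 5 remaining DSS libraries. With 1 library left out 8.92% to 11.2% of the genes were higher and 8.77% to 10.9% lower. With the 4 libraries of day 28 alone 18.2% were higher than C and 16.0% lower, and with those of day 33 alone 20.1% and 24.4%.

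In a fit of all 17631 genes with limma, in which the 8 DSS libraries supply the spread and the lone C library is assumed to vary like them, 2 genes were called higher and 12 lower at a Benjamini-Hochberg adjusted p under 0.05 (0.0113% and 0.0681% of the genes). The 12 called lower are small RNAs listed at 0 in all 8 DSS libraries. They have no spread of their own among the DSS libraries and passed the minimum only through C, which is 1 library, so their direction was fixed before the fit. The fit sets the same libraries against C on the same values as the rule, so its calls are no independent support for members. Of the called higher genes, 1 was Tef. The other was Gm44364, an annotated microRNA gene named after its values were seen, with 13.3 to 62.5 FPKM in the DSS libraries and listed at 0 in C. Of 20 alternatives 15 kept the call. The call of Gm44364 rests on an exact 0 in C, which is 1 library. For genes shorter than a fragment such a 0 can be a failed estimate. At an unadjusted p under 0.05 there were 320 genes, 1.81% of those tested, with 174 higher and 146 lower. An exact permutation test of 1 library against 8 cannot give a two-sided p below 0.222, so no permutation test of a single gene is reported.

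**Figure D1:**
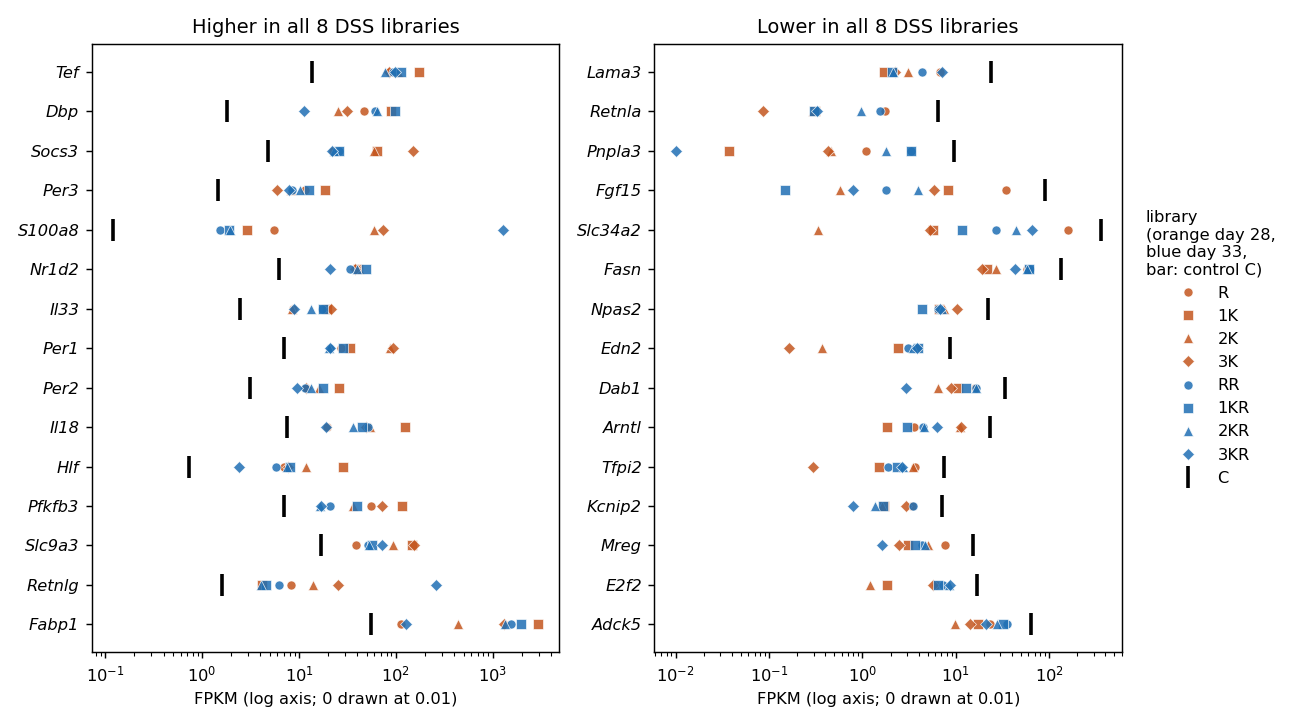
Level (FPKM, log axis) of the 15 genes higher (left panel) and the 15 lower (right panel) in all 8 DSS libraries that were named for the largest smallest difference, small RNAs and predicted genes left out, with 1 symbol per DSS library (orange day 28, blue day 33) and a black bar for the control library C. All symbols of a gene lie on 1 side of its bar; Fgf15 and Slc34a2 spread widely, while Tef and Npas2 lie close together.

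Of the 30 genes named for the largest smallest difference, 9 belong to the clock loop or its outputs. Clock genes vary over the day, and the hour at which each library was collected is not given, so for them the hour and DSS cannot be told apart. Tef (ENSMUSG00000022389, chr15:81802421-81826863 in GRCm38), an output factor of the clock, had 78.1, 94.9 and 171 FPKM in the DSS libraries (lowest, median and highest of 8, the order used in all such triples), against 13.7 FPKM in C. Its smallest difference was 2.47 and its median difference 2.75, and the 1K library was the highest while the other 7 lay between 78.1 and 112 FPKM. The limma values of Tef come from the same levels by which it was named, so they are no separate support for it. The limma estimate was 2.82 ± 0.37 (SE), with an adjusted p of 0.0371. The adjusted p ranged from 0.0015 to 0.529 over 20 alternatives, of which 6 kept the call. Leaving out R, 2K, 3K, RR, 1KR, 2KR or 3KR each ended it, with values between 0.0598 and 0.0973, and leaving out 1K gave 0.00351.

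The 2 related factors Dbp and Hlf lay on the same side. Dbp (ENSMUSG00000059824, chr7:45705088-45710203) had 11.3, 54.0 and 99.0 FPKM in the DSS libraries, against 1.81 FPKM in C, and its median difference of 4.55 was larger than that of any other clock gene measured. The 1KR library was the highest and 3KR the lowest, and no DSS library came within 4-fold of C. Hlf had 2.42, 7.65 and 28.3 FPKM in the DSS libraries, against 0.734 FPKM in C, with 3KR again the lowest.

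The Period genes, which encode the repressors of the loop, were higher in all 8 libraries. Per3 had 5.89, 9.27 and 18.7 FPKM in the DSS libraries, against 1.44 FPKM in C. Per1, which responds to glucocorticoids as well as to the clock, had 20.5, 27.8 and 93.8 FPKM in the DSS libraries, against 6.95 FPKM in C. Per1 was far higher in 2K (87.3 FPKM) and 3K (93.8 FPKM) than in the other 6 libraries, which lay between 20.5 and 33.7 FPKM. Per2 had 9.50, 12.5 and 25.7 FPKM in the DSS libraries, against 3.15 FPKM in C, with 1K the highest and 3KR the lowest.

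Nr1d2 and Nr1d1 encode the receptors that repress Arntl. Nr1d2 had 21.1, 39.7 and 49.1 FPKM in the DSS libraries, against 6.27 FPKM in C, and 7 of the 8 libraries lay between 33.9 and 49.1 FPKM. Nr1d1 had 18.1, 87.5 and 109.8 FPKM in the DSS libraries, against 14.9 FPKM in C, and there 3KR stood close to C while the others lay at 64.6 FPKM or more. Ciart, a repressor that acts on the ARNTL pair, had 1.29, 5.88 and 21.9 FPKM in the DSS libraries, against 0.587 FPKM in C. Its spread was wide, with 2K the highest and 3KR the lowest.

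Cry1, Cry2, Csnk1d and Csnk1e, which encode the Cryptochromes and the kinases that mark Period proteins, were on both sides of C. Cry1 was above C in 5 of 8 libraries, with a range of differences of -0.43 to 1.20. Cry2 was above C in 5 of 8 as well (-0.36 to 2.46), and the large values came from 2K and 3K. Of the 13 genes in the list of clock repressors and output factors, 9 were thus higher in all 8 libraries and 0 lower, against 8.31% and 8.46% of all genes tested, and the list's median difference was 2.32 against 0.0 over all genes. Under the median of ratios and the protein-coding scaling 9 of 13 were higher, with medians of 2.25 and 2.14, against 6.62% and 2.74% of all genes. With 2K, 3K and 3KR left out 9 of 13 were higher, against 19.4% of all genes, with a median of 2.203.

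Among the activators, Arntl and Npas2 were lower. Arntl (ENSMUSG00000055116, chr7:113207465-113314126) had 1.84, 4.52 and 11.5 FPKM in the DSS libraries, against 23.0 FPKM in C. The 1K library was the lowest, and 2K and 3K, at 11.1 and 11.5 FPKM, lay nearest to C. Npas2 had 4.33, 6.71 and 10.2 FPKM in the DSS libraries, against 21.9 FPKM in C, and 7 of the libraries lay between 4.33 and 7.51 FPKM. Clock itself differed by -0.43 to 0.17, which spans C. It lay below C in all 8 libraries after the protein-coding scaling.

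Nfil3, a repressor at D-boxes, was lower in 6 libraries and higher in 2K and 3K, with 1.64, 2.67 and 22.6 FPKM in the DSS libraries, against 9.62 FPKM in C. Bhlhe40, a repressor at E-boxes, was higher in all 8 libraries, with 37.8, 44.7 and 129 FPKM in the DSS libraries, against 27.5 FPKM in C. Rora, which activates Arntl through ROR elements, was on both sides of C (-0.44 to 2.11). The list of activators and their partners also holds the repressors Nfil3 and Bhlhe40, which are not counted in the list of repressors and output factors. Of its 7 measured genes, 1 (Bhlhe40) was higher and 2 (Arntl and Npas2) were lower in all 8 libraries. The shares over all genes were 8.31% and 8.46%, and the list's median difference was -0.15.

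**Figure D2:**
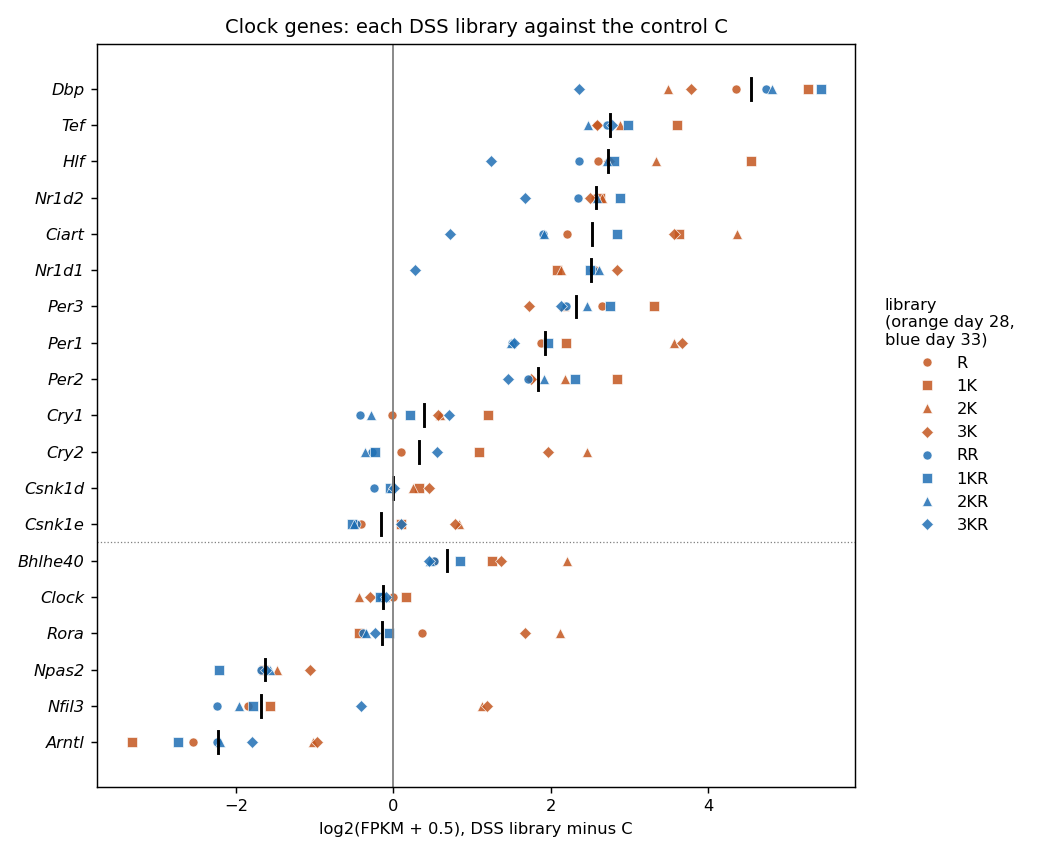
Difference from C on the log2(FPKM + 0.5) scale (x axis) for 19 measured clock genes (y axis), with 1 symbol per DSS library (orange day 28, blue day 33), a black tick at the median of 8 and a grey line at C. The genes above the dotted line are the list of repressors and output factors, of which 9 lie wholly to the right. Below it is the list of activators and their partners, which also holds the repressors Nfil3 and Bhlhe40. There Arntl and Npas2 lie wholly to the left and Bhlhe40 wholly to the right. The library 3KR is the nearest to C for Dbp, Hlf, Nr1d2, Ciart and Nr1d1.

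The RefSeq promoter windows (250 bases before to 50 after a start, GRCm38.p6) of 5 clock genes on 1 side of C are shown because they hold letters of the elements through which the loop is known to run. They were picked, after their values were seen, from 18 of 22 clock genes with a window, and 7 of the 18 held at least 1 of 3 motifs. The motifs, searched on both strands and not overlapping one another here, were the E-box CACGTG (in 7.15% of all 32851 windows), the D-box TTATGNAA (3.38%) and the ROR element, which is AANT followed by AGGTCA (0.219%), with N for any base. In the lines below capitals mark the motif and each window is given 5′ to 3′ on the strand of its gene. Tef (chr15:81802423-81802722, plus strand) holds an E-box starting 127 bases before the start, and Ciart (chr3:95882179-95882478, minus strand) holds 3, starting 116, 58 and 44 bases before it. Per1 (chr11:69098699-69098998, plus strand) holds an E-box 166 and a D-box 24 bases before the start, and Per3 (chr4:151044616-151044915, minus strand) holds D-boxes 205 and 158 bases before it. Arntl (chr7:113207261-113207560, plus strand) holds a ROR element from base 28 after the start.
Tef: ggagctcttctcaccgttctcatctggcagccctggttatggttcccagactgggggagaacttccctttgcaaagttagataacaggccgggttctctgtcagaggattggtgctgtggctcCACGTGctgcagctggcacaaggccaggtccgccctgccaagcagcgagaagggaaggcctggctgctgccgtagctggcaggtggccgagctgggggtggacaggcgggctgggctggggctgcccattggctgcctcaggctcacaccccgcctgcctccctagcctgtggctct
Ciart: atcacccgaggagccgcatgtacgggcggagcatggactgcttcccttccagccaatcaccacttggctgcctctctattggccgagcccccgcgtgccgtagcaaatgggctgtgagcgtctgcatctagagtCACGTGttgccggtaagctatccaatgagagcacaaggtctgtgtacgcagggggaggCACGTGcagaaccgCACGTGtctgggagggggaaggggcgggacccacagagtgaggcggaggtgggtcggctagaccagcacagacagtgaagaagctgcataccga
Per1: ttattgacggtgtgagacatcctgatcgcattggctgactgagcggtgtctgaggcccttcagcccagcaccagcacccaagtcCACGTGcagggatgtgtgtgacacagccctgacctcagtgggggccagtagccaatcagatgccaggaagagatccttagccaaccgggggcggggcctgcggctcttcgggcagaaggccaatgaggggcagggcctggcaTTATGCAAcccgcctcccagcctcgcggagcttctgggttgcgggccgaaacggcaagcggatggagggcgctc
Per3: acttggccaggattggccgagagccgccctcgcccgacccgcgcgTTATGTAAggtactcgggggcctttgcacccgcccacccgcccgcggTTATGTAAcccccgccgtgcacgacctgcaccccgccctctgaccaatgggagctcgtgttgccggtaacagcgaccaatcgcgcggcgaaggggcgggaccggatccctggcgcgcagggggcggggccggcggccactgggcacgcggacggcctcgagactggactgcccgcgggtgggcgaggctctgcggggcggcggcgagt
Arntl: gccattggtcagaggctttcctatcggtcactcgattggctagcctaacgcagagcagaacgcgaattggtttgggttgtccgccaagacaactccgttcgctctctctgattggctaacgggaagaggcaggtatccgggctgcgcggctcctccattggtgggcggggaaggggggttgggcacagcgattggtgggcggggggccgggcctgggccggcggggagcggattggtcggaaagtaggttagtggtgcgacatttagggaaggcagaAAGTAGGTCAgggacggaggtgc
These windows were chosen because they hold motifs, so nothing is drawn from which motif stands beside which direction. The windows of Nr1d1, Nr1d2, Dbp and Hlf, which were higher, and of Npas2, which was lower, hold none of the 3 motifs. Neither do further windows of Arntl and of Per1 (chr11:69099902-69100201). A further window of Tef (chr15:81811164-81811463), not shown, holds an E-box starting 138 bases before its start. The window of Cry1, which was on both sides of C, holds an E-box, as does that of Bhlhe41, which was under the minimum mean. A match of letters is a description of the window and no measurement of binding. Windows were found for 991 of the 1466 higher and 870 of the 1491 lower genes, under the share needed to compare the sets, so no share of motifs among members is given.

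Genes known to follow the clock in gut metabolism were split. Of 19 measured, 6 were higher and 4 lower in all 8, against 8.31% and 8.46% of all genes, with a median difference of 0.43. Slc9a3, the sodium and proton exchanger of the enterocyte brush border, had 38.6, 64.6 and 154 FPKM in the DSS libraries, against 16.8 FPKM in C. Usp2, a deubiquitinating enzyme, had 14.2, 31.0 and 86.0 FPKM in the DSS libraries, against 9.50 FPKM in C. Por, the electron donor of cytochrome P450 enzymes, had 74.7, 202 and 590.2 FPKM in the DSS libraries, against 45.8 FPKM in C. Slc5a1, the sodium-coupled glucose transporter, was at least 0.38 above C and was the highest in 1K. The 4 lower ones included Cldn4, a tight junction claudin, at 12.8, 27.2 and 49.5 FPKM in the DSS libraries, against 62.0 FPKM in C.

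The genes whose pattern over the 9 libraries was most like that of Dbp and Arntl were found by Pearson's r of log2(FPKM + 0.5) among the 10547 genes averaging 5 FPKM or more. For Dbp they were Elmod2 (0.98), Ccdc71l (0.96), Azin1 (0.94), Gda (0.94) and Nr1d2 (0.93), all higher in all 8 libraries. Azin1, which raises polyamine synthesis by binding antizyme, had 96.2, 206 and 298 FPKM in the DSS libraries, against 88.3 FPKM in C. For Arntl they were Cbx3 (0.94), Zc3h7b (0.92), Wdyhv1 (0.88), Pias3 (0.87) and Gtf2ird1 (0.87), of which Cbx3 and Wdyhv1 were lower in all 8. Cbx3 spanned a far narrower range than Arntl, with 12.7, 14.2 and 15.6 FPKM in the DSS libraries, against 16.1 FPKM in C. C is 1 of the 9 points, the lowest for Dbp and the highest for Arntl, so genes of like pattern tend to share their side by construction. The points share 1 control library, so r describes the 9 libraries only.

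Targets of the glucocorticoid receptor formed another group on the higher side. Of 22 measured genes 13 were higher and 0 lower in all 8 libraries, against 8.31% and 8.46% of all genes, and the median difference was 1.15. Fkbp5, a co-chaperone that dampens the receptor, had 7.36, 42.7 and 240.2 FPKM in the DSS libraries, against 4.24 FPKM in C. The 1K and 2K libraries were the highest (240.2 and 229 FPKM) and 2KR was the lowest. Sgk1, a kinase that promotes sodium uptake, had 265, 449 and 1084 FPKM in the DSS libraries, against 148 FPKM in C. Sgk1 was at least 0.84 above C in each library.

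Tsc22d3, which encodes the anti-inflammatory protein GILZ, had 36.3, 55.7 and 113 FPKM in the DSS libraries, against 27.2 FPKM in C. Pdk4, the kinase that shuts pyruvate out of oxidation, had 17.2, 48.0 and 212 FPKM in the DSS libraries, against 13.6 FPKM in C, and its nearest libraries R and 3KR were close to C. Errfi1, an inhibitor of the EGF receptor, had 17.4, 55.02 and 367 FPKM in the DSS libraries, against 15.9 FPKM in C. Hif3a, a negative regulator of the hypoxia response, had 0.529, 2.32 and 8.14 FPKM in the DSS libraries, against 0.345 FPKM in C. For Pdk4, Errfi1 and Hif3a, each of 1K, 2K and 3K lay above all of the other 5 DSS libraries.

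Ddit4, an inhibitor of mTORC1, and Cebpd, a factor of the acute phase, had smallest differences of 0.47 and 0.35 and median differences of 1.27 and 1.53. Lcn2, Zbtb16, Klf9 and Cdkn1a were higher in all 8 by as little as 0.15, 0.07, 0.05 and 0.03. All 4 lay on both sides of C after the protein-coding scaling, and Zbtb16 and Klf9 also after the median of ratios. Lcn2, which encodes an iron-binding defence protein, had 1.69, 10.3 and 3026 FPKM in the DSS libraries, against 1.47 FPKM in C. Its highest value came from 2K, the library with liver RNA, and the part of that RNA in it was not tested.

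The metallothioneins Mt1 and Mt2, which bind zinc, were above C in 5 of 8 libraries each, with ranges of -0.69 to 4.88 and -1.15 to 6.07. Dusp1, a phosphatase of MAP kinases, was above C in 7 of 8 (-0.03 to 3.31). Nr3c1, the receptor gene itself, was on both sides of C at 24.5, 39.9 and 46.8 FPKM in the DSS libraries, against 44.4 FPKM in C. Nr5a2, Hsd11b1 and Hsd11b2, which serve steroid synthesis and turnover in the gut, were on both sides too (-0.98 to 0.15, -0.82 to 3.73 and -1.57 to 3.12), as were Tat and Sult1a1 (-2.11 to 8.55 and -0.68 to 2.62).

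The group's median difference was largest in 2K (3.33), 3K (2.84) and 1K (2.11) and smallest in RR (0.28). With 2K, 3K and 3KR left out 13 of 22 were higher and 1 lower, against 19.4% and 19.6% of all genes, and the median was 0.40. The protein-coding scaling left 9 of 22 higher, against 2.74% of all genes, with a median of 0.89. Per1 is counted in this list and in that of the clock.

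Socs3, which is induced by cytokines that signal through STAT3 and blocks them, had 22.0, 25.8 and 149 FPKM in the DSS libraries, against 4.79 FPKM in C. The library 3K was the highest, and 5 of the 8 lay between 22.0 and 26.0 FPKM. Il33, an alarm cytokine of epithelium and stroma, had 8.46, 15.2 and 21.4 FPKM in the DSS libraries, against 2.45 FPKM in C. Il18, a cytokine that the gut epithelium stores, had 18.8, 46.9 and 125 FPKM in the DSS libraries, against 7.50 FPKM in C, with 1K the highest and 3KR and R the lowest.

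Of 28 measured cytokines and chemokines 12 were higher and 2 lower in all 8 libraries, against 8.31% and 8.46% of all genes. The median difference was 0.61. Of these genes, 10 averaged under 1 FPKM over C and the DSS libraries other than 2K, 3K and 3KR. They were measured only through 2K, 3K and 3KR. Once those libraries were left out, 7 of the other 18 were higher and 3 lower, against 19.4% and 19.6% of all genes tested. Of the 36 listed genes, 6 were at 0 in C, where any level in the DSS libraries counts as higher. Ccl8, which attracts monocytes, had 0.531, 4.16 and 7.86 FPKM in the DSS libraries, against 0.223 FPKM in C, with 1K the lowest. Ccl5, a chemokine of T and NK cells, had 9.60, 16.7 and 68.7 FPKM in the DSS libraries, against 6.88 FPKM in C. Cxcl2, which attracts neutrophils, was listed at 0 in C and had 0.035, 1.28 and 303 FPKM in the DSS libraries, with 3KR the highest.

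Among 30 cytokine receptors and signalling genes 8 were higher and 3 lower in all 8, against 8.31% and 8.46% of all genes. Tnfaip3, a brake on NF-kB, had 12.7, 19.2 and 29.8 FPKM in the DSS libraries, against 7.89 FPKM in C. Tnfrsf1a, the main TNF receptor, had 85.3, 101 and 193 FPKM in the DSS libraries, against 54.7 FPKM in C. Of the 37 measured genes of the interferon response, 2 (Zbp1 and Nlrc5) were higher and 0 lower in all 8 libraries, against 8.31% and 8.46% of all genes. The list's median of 0.06 turned to -0.18 with the protein-coding scaling, under which the median over all genes was -0.27. With 2K, 3K and 3KR left out 15 of the 37 were higher, against 19.4% of all genes, with a median of 0.40. With 3KR alone left out 6 were, against 11.2% of all genes. The list's median was 0.38 in RR, 0.96 in 1KR and 1.94 in 2KR.

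Neutrophil genes were higher in all 8 libraries for 11 of 18 measured and lower for 0, against 8.31% and 8.46% of all genes. Their median difference was 1.01. S100a8, a calcium-binding protein abundant in neutrophils, had 1.54, 4.22 and 1273 FPKM in the DSS libraries, against 0.121 FPKM in C. The 3KR library exceeded every other by more than 10-fold, and 2K (59.5 FPKM) and 3K (73.4 FPKM) followed. Retnlg, a resistin-like protein of granulocytes, had 4.10, 7.20 and 259.8 FPKM in the DSS libraries, against 1.59 FPKM in C, with the same library on top.

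S100a9, the partner of S100a8, had 0.724, 2.91 and 751 FPKM in the DSS libraries, against 0.22 FPKM in C. Ly6g, a defining marker of mouse neutrophils named after its values were seen, was listed at 0 in R and reached 78.7 FPKM in 3KR, against 0.047 FPKM in C. The summed level of the list was 0.332% of all FPKM in 3KR, 0.137% in 2K, 0.0844% in 3K and 0.00296% to 0.00682% in the other 5 DSS libraries, against 0.00209% in C. With 2K, 3K and 3KR left out 11 of 18 were higher, against 19.4% of all genes, and the median was 0.57. Of the 18 genes, 9 averaged under 1 FPKM over C and the 5 remaining DSS libraries, so they were measured only through the libraries left out, and 6 of the other 9 were higher. In bulk tissue, more cells of a type and more RNA per cell cannot be told apart.

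T and NK cell genes were higher in all 8 for 12 of 21 measured, against 8.31% of all genes, and lower for 0. Their median difference was 0.85. Gzma, a granzyme of cytotoxic lymphocytes, had 8.75, 22.4 and 81.6 FPKM in the DSS libraries, against 5.92 FPKM in C, with 1KR the highest. Cd3e, a chain of the T cell receptor complex, had 4.81, 7.66 and 15.5 FPKM in the DSS libraries, against 2.33 FPKM in C. Gzmb, a second granzyme, had 1.46, 5.10 and 25.7 FPKM in the DSS libraries, against 1.40 FPKM in C. The protein-coding scaling left 6 of 21 higher, against 2.74% of all genes, and without 2K, 3K and 3KR there were 14, against 19.4%.

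Of 24 macrophage and monocyte genes 4 were higher and 1 lower in all 8, against 8.31% and 8.46% of all genes. The median was 0.68. With 1K left out 14 of the 24 were higher in the other 7 libraries, against 9.27% of all genes, and 16 in the 4 of day 33, against 20.1%. Gpnmb, a glycoprotein of macrophages, had 0.426, 10.1 and 17.7 FPKM in the DSS libraries, against 0.198 FPKM in C, and Fcgr3, an Fc receptor, had 5.96, 10.04 and 16.3 FPKM in the DSS libraries, against 3.87 FPKM in C. Of 16 plasma cell genes 4 were higher, against 8.31% of all genes, and 3 of the 4 were constant regions of IgG. With the protein-coding scaling 1 of 16 was higher, against 2.74% of all genes. With the 4 libraries of day 33 alone 14 of the 16 were higher, against 20.1% of all genes, and 6 were with 1K left out, against 9.27%. Ighg2b had 1.94, 10.9 and 237 FPKM in the DSS libraries, against 1.37 FPKM in C, with 3KR far above the rest. Of 17 B cell genes 0 were higher and 1 lower, against 8.31% and 8.46% of all genes. Of 8 tuft cell genes 4 were higher and 0 lower, against 8.31% and 8.46% of all genes. With the protein-coding scaling 2 of 7 measured tuft cell genes were higher and 0 lower, against 2.74% and 20.7% of all genes.

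Retnla, a resistin-like protein that macrophages and epithelium make under type 2 cytokines, stood on the other side. It had 0.086, 0.316 and 1.76 FPKM in the DSS libraries, against 6.44 FPKM in C. Its mean reached 1 FPKM only through C, so C had to lie above its DSS mean. Every DSS library was more than 3-fold below C on the scale with the pseudocount, and 3K was the lowest.

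**Figure D3:**
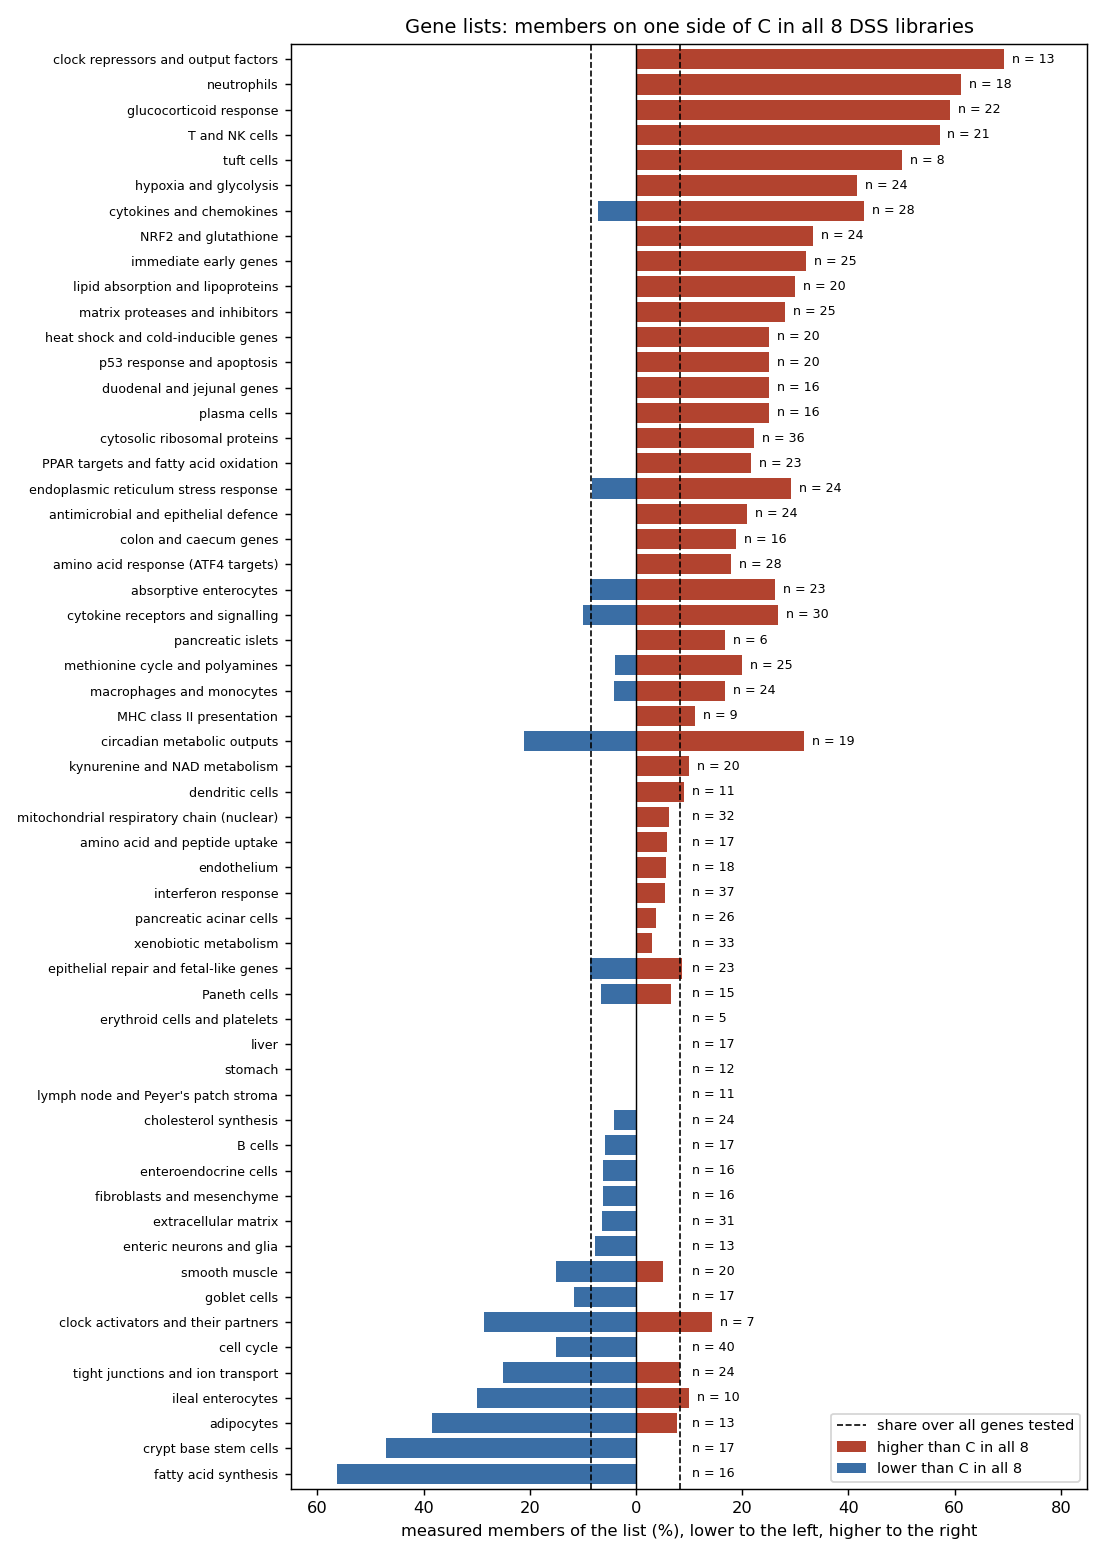
Share of the measured members of each gene list (y axis, lists with at least 5 measured members, n at the right) that were higher (red, to the right) or lower (blue, to the left) than C in all 8 DSS libraries, as a percent (x axis). The dashed lines mark the shares over all genes tested, 8.31% higher and 8.46% lower; clock repressors, neutrophils, glucocorticoid targets and T and NK cells reach furthest to the right and fatty acid synthesis and crypt base stem cells furthest to the left.

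Glycolysis and hypoxia genes were higher in all 8 for 10 of 24 measured and lower for 0, against 8.31% and 8.46% of all genes. Their median difference was 0.56. Pfkfb3, the enzyme whose product drives phosphofructokinase, had 16.4, 37.5 and 116 FPKM in the DSS libraries, against 6.97 FPKM in C. It was the highest in 1K, and 2KR and 3KR were the lowest. Hif1a, the oxygen-regulated factor, had 23.7, 38.9 and 68.3 FPKM in the DSS libraries, against 12.97 FPKM in C. Pkm, a pyruvate kinase, had 160.2, 328 and 608 FPKM in the DSS libraries, against 107 FPKM in C, and R was the lowest. Gapdh, another glycolytic enzyme, had 7.32, 12.4 and 19.7 FPKM in the DSS libraries, against 5.04 FPKM in C, but it has many near-identical pseudogenes that can share its reads, so its level is uncertain.

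Of 24 NRF2 and glutathione genes 8 were higher and 0 lower in all 8, against 8.31% and 8.46% of all genes. With the protein-coding scaling 4 were higher and 1 lower in all 8, against 2.74% and 20.7% of all genes. Hmox1, which breaks down haem, had 1.35, 4.04 and 38.6 FPKM in the DSS libraries, against 0.906 FPKM in C, with 2K and 3K the highest. Fth1, the ferritin heavy chain, had 847, 1209 and 3327 FPKM in the DSS libraries, against 629.9 FPKM in C. Of 24 genes of the endoplasmic reticulum stress response 7 were higher and 2 lower, against 8.31% and 8.46% of all genes. Herpud1, which helps to degrade misfolded proteins, had 63.9, 201 and 407 FPKM in the DSS libraries, against 45.8 FPKM in C, and the chaperone gene Hspa5 had 144, 223 and 260.1 FPKM in the DSS libraries, against 122 FPKM in C. With the protein-coding scaling 1 of these 24 was higher in all 8, against 2.74% of all genes. The list's median was then -0.09, against 0.25 as deposited, while the median over all genes was -0.27 and 0.0.

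Lipid handling divided by direction. Of 20 measured genes of lipid absorption and lipoproteins 6 were higher and 0 lower in all 8, against 8.31% and 8.46% of all genes. Their median difference was 0.71. Without 3KR alone 11 of 20 were higher, against 11.2% of all genes, and without 2K, 3K and 3KR 14 were, against 19.4%. With the protein-coding scaling 4 were higher and 1 lower, against 2.74% and 20.7% of all genes. Fabp1, which carries fatty acids in proximal enterocytes, had 113, 1314 and 2941 FPKM in the DSS libraries, against 55.1 FPKM in C. R (113 FPKM) and 3KR (127 FPKM) lay about 2-fold above C, and 5 of the others lay at 1295 FPKM or more. Apoc2, the cofactor of lipoprotein lipase, had 211, 1743 and 2944 FPKM in the DSS libraries, against 134 FPKM in C. Apoa4, an apolipoprotein of chylomicrons, had 498, 4931 and 9730.0 FPKM in the DSS libraries, against 474 FPKM in C, and R was nearly level with C.

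Fatty acid synthesis was the list with the largest share on the lower side among those with at least 5 measured members. Of 16 genes 9 were lower and 0 higher in all 8 libraries, against 8.46% and 8.31% of all genes, with a median of -0.70. Fasn, the fatty acid synthase, had 19.1, 50.6 and 61.6 FPKM in the DSS libraries, against 133 FPKM in C. Its nearest libraries, RR and 1KR, were still more than 2-fold below C. Pnpla3, a lipase of lipid droplets, was listed at 0 in 3KR and had 0, 0.778 and 3.31 FPKM in the DSS libraries, against 9.52 FPKM in C.

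Acaca, which supplies malonyl-CoA to the synthase, had 7.92, 15.7 and 22.3 FPKM in the DSS libraries, against 32.2 FPKM in C. Scd1, a desaturase, had 10.9, 131 and 348 FPKM in the DSS libraries, against 389 FPKM in C, and Thrsp, a lipogenic regulator, had 0.721, 18.5 and 28.1 FPKM in the DSS libraries, against 38.6 FPKM in C. For all 3 genes 1K was the lowest.

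The lower count was 11 of 16 with the protein-coding scaling, against 20.7% of all genes, and 9 with the median of ratios, against 10.6%. Cholesterol synthesis, which shares the SREBP factors with this list, had 1 of 24 genes lower in all 8 libraries, against 8.46% of all genes. Its median was -0.50. With 3KR alone left out 13 of 24 were lower, against 10.7% of all genes, and with 2K and 3K left out 1 was, against 14.1%. Hmgcs1, an early enzyme of the pathway, had 19.5, 36.6 and 109 FPKM in the DSS libraries, against 92.5 FPKM in C, and only 3KR lay above C. Of 13 adipocyte genes 5 were lower and 1 higher, against 8.46% and 8.31% of all genes. Plin1, which coats the lipid droplet of adipocytes, had 0.497, 8.53 and 11.6 FPKM in the DSS libraries, against 20.8 FPKM in C. The summed level of the adipocyte list was 0.0215% to 0.164% in the DSS libraries and 0.0861% in C, and its part in the values of fatty acid synthesis was not tested.

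Genes of crypt base stem cells were lower in all 8 for 8 of 17 measured, against 8.46% of all genes, and higher for 0. Their median difference was -0.46. Lgr5, the defining receptor of these cells, had 0.492, 2.26 and 6.28 FPKM in the DSS libraries, against 8.62 FPKM in C. Olfm4, a secreted protein of the crypt base, had 0.916, 118 and 274 FPKM in the DSS libraries, against 313 FPKM in C. Olfm4 was below 4 FPKM in 1K, 2K and 3K and between 202 and 274 FPKM in R, 1KR and 2KR, with RR just under them. Axin2, a target of Wnt signalling, had 1.79, 17.8 and 29.1 FPKM in the DSS libraries, against 34.9 FPKM in C. With 2K, 3K and 3KR left out 11 of 17 were lower, against 19.6% of all genes, with a median of -0.51, and with the protein-coding scaling 12 of 17 were, against 20.7%.

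Of 40 cell cycle genes 6 were lower and 0 higher, against 8.46% and 8.31% of all genes, with a median of -0.21. With the protein-coding scaling 16 of 40 were lower, against 20.7% of all genes. With 2KR left out 11 were lower, against 9.12% of all genes, and with the 4 libraries of day 28 alone 22 were, against 16.0%. E2f2, a factor that promotes entry into S phase, had 1.21, 6.26 and 8.73 FPKM in the DSS libraries, against 16.8 FPKM in C. For E2f2 all 4 libraries of day 33 lay above all 4 of day 28, as for 24 of the 1491 lower genes (1.61%, against 2.53% of all genes tested). The days did not overlap in either direction for 7.42% of all genes tested. Mcm2, part of the replicative helicase, had 2.80, 6.16 and 7.93 FPKM in the DSS libraries, against 9.57 FPKM in C. Goblet cell genes were below C by their median in 16 of 17 cases, but 2 were lower in all 8 libraries, against 8.46% of all genes. The count lower in all was 11 with the protein-coding scaling, against 20.7% of all genes. It was 7 without 3KR (10.7% of all genes) and 4 without R (10.9%) or 1K (9.74%).

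Epithelial adhesion and transport genes were also among the lower ones. Lama3, a laminin chain that anchors epithelium to its basement membrane, had the largest smallest difference among the lower genes named by the rule above, with 1.68, 2.68 and 7.17 FPKM in the DSS libraries, against 23.5 FPKM in C. Of 24 genes of tight junctions and ion transport 6 were lower and 2 higher, against 8.46% and 8.31% of all genes. With the protein-coding scaling 11 of 25 measured were lower and 2 higher, against 20.7% and 2.74% of all genes. Cldn2, a claudin that forms cation pores, had 10.3, 20.6 and 32.6 FPKM in the DSS libraries, against 39.4 FPKM in C. Slc12a2, the chloride importer of secreting cells, had 17.1, 27.8 and 45.0 FPKM in the DSS libraries, against 51.7 FPKM in C. Both had R or 3KR as the library nearest to C.

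The remaining genes with the largest smallest difference on the lower side have varied roles. Edn2, an endothelin, had 0.163, 3.29 and 3.98 FPKM in the DSS libraries, against 8.62 FPKM in C, with 2K and 3K the lowest. Dab1, an adaptor of reelin signalling, had 2.94, 11.7 and 16.5 FPKM in the DSS libraries, against 33.5 FPKM in C, with 3KR the lowest. Tfpi2, a protease inhibitor, had 0.294, 2.49 and 3.64 FPKM in the DSS libraries, against 7.52 FPKM in C, with 3K the lowest. In the other 6 libraries Edn2 lay between 2.38 and 3.98 FPKM.

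Kcnip2, a subunit of potassium channels, had 0.799, 1.67 and 3.46 FPKM in the DSS libraries, against 7.15 FPKM in C. Mreg, which takes part in organelle transport, had 1.63, 3.99 and 7.73 FPKM in the DSS libraries, against 15.3 FPKM in C. Adck5, a predicted mitochondrial kinase, had 9.68, 22.3 and 35.5 FPKM in the DSS libraries, against 64.5 FPKM in C. Their libraries nearest to C were RR for Kcnip2 and Adck5 and R for Mreg.

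Genes that mark the position along the small intestine were split. Of 10 ileal genes 3 were lower and 1 higher in all 8, against 8.46% and 8.31% of all genes, with a median of -0.92. Fgf15, the hormone that ileal enterocytes release in response to bile acids, had 0.147, 2.87 and 34.5 FPKM in the DSS libraries, against 90.4 FPKM in C. Fabp6, the ileal bile acid carrier, had 0.282, 172 and 1946 FPKM in the DSS libraries, against 3486 FPKM in C. For both, R was the nearest to C at 34.5 and 1946 FPKM. Slc34a2, a phosphate transporter, had 0.337, 19.3 and 158 FPKM in the DSS libraries, against 357 FPKM in C, with R nearest as well.

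Of 16 duodenal and jejunal genes 4 were higher and 0 lower, against 8.31% and 8.46% of all genes. The median was 1.42, and Fabp1 is among the 4. Slc2a2, the basolateral glucose transporter, had 12.5, 91.0 and 357 FPKM in the DSS libraries, against 6.17 FPKM in C. Rbp2, the retinol carrier of proximal enterocytes, had 298, 1284 and 3026 FPKM in the DSS libraries, against 186 FPKM in C. The summed level of the ileal list was 0.153% to 0.742% of all FPKM in the DSS libraries, against 0.820% in C. That of the duodenal and jejunal list was 0.0988% in 3KR and 0.147% to 0.903% in the other DSS libraries, against 0.120% in C. The labels do not give the stretch of gut in each library, and the part of gut position in the values of lipid uptake, bile acid and transport genes was not tested.

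**Figure D4:**
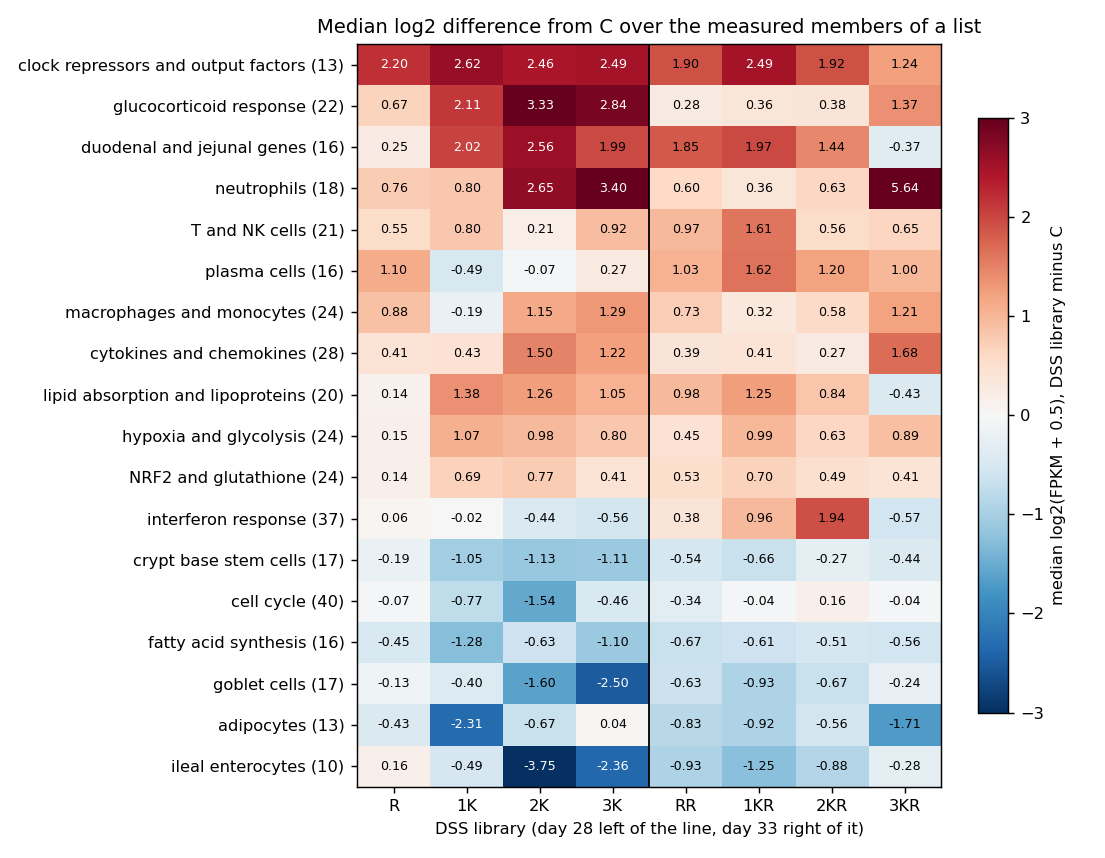
Median over the measured members of 18 gene lists (rows, number of members in brackets) of the difference from C on the log2(FPKM + 0.5) scale, for each DSS library (columns, day 28 left and day 33 right of the line), with red for higher and blue for lower than C. The clock repressors stay between 1.24 and 2.62 in all 8 libraries, while neutrophil genes range from 0.36 (1KR) to 5.64 (3KR) and ileal genes from -3.75 (2K) to 0.16 (R).

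The members differed from all genes tested in their types and levels. Protein-coding genes made up 82.1% of the higher genes, 70.2% of the lower genes and 75.4% of all genes tested. Long noncoding RNAs made up 6.21% of the higher and 16.1% of the lower genes, against 11.1% of all, and small RNAs 0.955% and 5.50%, against 4.27%. Segments of immunoglobulin genes were 14 of the higher and 3 of the lower genes, which is 0.955% and 0.201%, against 0.890% of all. The median over members of the mean level was 14.7 FPKM for the higher and 4.05 FPKM for the lower genes, against 7.61 FPKM for all. Of the lower genes 88 had a mean of at least 1 FPKM only through C, so C had to lie above their DSS mean, and 12 were listed at 0 in every DSS library. Of the higher genes 20 were listed at 0 in C.

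The 12 genes listed at 0 in all 8 DSS libraries are transcripts of small nuclear, nucleolar, transfer, ribosomal or micro RNA genes. They include Scarna9, which guides the modification of spliceosomal RNA and is listed at 52.5 FPKM in C, and Snord35a, a guide for ribosomal RNA at 20.002 FPKM in C. An exact 0 beside such a level can be a failed estimate for genes shorter than a fragment, and the 8 libraries and C cannot be compared for them beyond what is listed. Whether the counting used strand is not given, so genes that overlap others on the opposite strand are uncertain too.

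The library nearest to C varied among members. Among the higher genes the library nearest to C, which fixes the smallest difference, was R for 30.6% and 3KR for 22.0%, against 25.5% and 15.1% of all genes tested. Among the lower genes it was R for 35.7% and 3KR for 18.5%. The library farthest from C was 1K for 25.9%, 2K for 24.1% and 3K for 18.1% of the higher genes, against 16.0%, 24.6% and 21.2% of all genes tested. For the lower genes these shares were 14.3%, 26.0% and 23.5%. Days 28 and 33 rarely separated within the members: all 4 day 33 libraries lay above all 4 day 28 libraries for 1.36% of the higher genes, against 2.53% of all, and below them for 3.41%, against 4.89% of all.

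**Figure D5:**
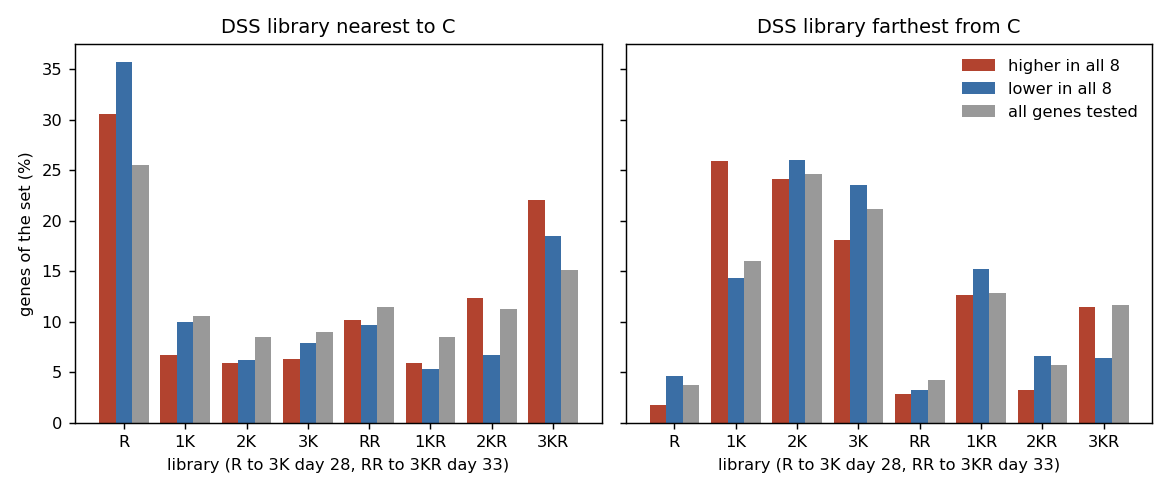
Share of genes (y axis, percent) for which each DSS library (x axis) was the nearest to C (left panel) or the farthest from C (right panel), for genes higher in all 8 (red), lower in all 8 (blue) and all genes tested (grey). R and 3KR are most often nearest to C in both groups of members, as they are over all genes tested (25.5% and 15.1%); as farthest library, 1K stands above the share over all genes among the higher genes (25.9% against 16.0%).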

How the data were processed

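Total RNA of the intestinal tract was depleted of ribosomal RNA and made into strand-specific libraries, per the labels' protocols. Reads were aligned to GRCm38 with HISAT2 and levels estimated with Cuffdiff 2.2.1, per the submitters' processing notes. The deposited table gives FPKM per gene and condition, per the file headers, to 3 decimals, with no counts and no replicates, so the fragments per library were estimated from the steps between low values. Genes whose mean over the 9 libraries was 1 FPKM or more were kept, and differences are of log2(FPKM + 0.5), each DSS library minus C. limma 3.58.1 (R 4.3.3) was fitted over all 17631 genes, with 7 residual degrees of freedom from the 8 DSS libraries, and tested on simulated data first. Tables were made with Python 3.11.15 and pandas 2.3.3. Gene types and coordinates come from GENCODE M21 (GRCm38), which lacks 241 of the rows.

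The members, the 59 gene lists and the settings were chosen with earlier results of these data known. Leaving out predicted genes, pseudogenes, small RNAs, mitochondrial genes, histones and antigen receptor segments, the genes named are the 15 in each direction with the largest smallest difference that reach 5 FPKM in at least 1 library, all genes of the clock and glucocorticoid lists, up to 6 per other list with the largest median difference in size, and the 5 most like Arntl and Dbp. Of the genes this rule gives, 2 are not reported here. Because each condition has 1 library, p-values measure only the spread between the DSS libraries. Alternatives were other pseudocounts, minimum means and scalings, each DSS library left out, each day alone, and removal of 2K and 3K, or of these and 3KR, for lists also with the minimum taken over the remaining libraries.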

Additional observations from a re-analysis of the deposited data

Results flagged for a closer look

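Of 41 genes checked, 5 had a DSS library standing apart from the other 7 by a gap larger than Dixon's 95% limit, which chance gives in about 1 in 20 groups. The 3KR library was the lowest for Nr1d1, at 18.1 FPKM, and for Nr1d2, at 21.1 FPKM, and the highest for Retnlg, at 259.8 FPKM. The 1K library was the highest for Tef, at 171.3 FPKM. The 3K library was the lowest for Tfpi2, at 0.294 FPKM. 3KR was also the shallowest library, with 50.2% of its FPKM in small RNAs, and the part of either in its values was not tested.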

How the results depend on the processing

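A member stays on its side by construction when libraries are left out or the pseudocount or minimum changes, so only the 2 scalings could move one. The protein-coding scaling could move only higher genes. Each of the 30 genes named for the largest smallest difference kept its side under both, which their distance from C fixed in advance. The number of genes higher in all DSS libraries was 485 with the protein-coding scaling, 3205 with day 28 alone, 3540 with day 33 alone and 3428 without 2K, 3K and 3KR, and 1572 to 1979 with 1 library left out. The number lower was 660 at a minimum mean of 5, 5615 with no minimum, 3654 with the protein-coding scaling, 2491 without 2K and 3K, 3449 without 2K, 3K and 3KR, 2827 with day 28 alone, 4306 with day 33 alone and 1546 to 1917 with 1 library left out. At least 2-fold higher were 61 with a pseudocount of 0.1, 54 without 2K and 3K, 118 without all 3, 122 with day 28 alone, 170 with day 33 alone and 35 to 60 with 1 library left out (60 without R, 59 without 3KR). At least 2-fold lower were 10 at a minimum mean of 5, 124 with no minimum, 63 with the protein-coding scaling, 59 without 2K and 3K, 100 without all 3, 120 with day 28 alone, 149 with day 33 alone and 32 to 53 with 1 library left out (49 without R, 47 without 2K, 53 without 3KR). Rules over fewer libraries are easier to meet by construction. The protein-coding scaling can only add lower genes and remove higher ones, apart from genes that cross the minimum mean. For the other settings the cause was not tested.

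limma called 1 gene higher with a pseudocount of 1 or of 0.1, 0 at a minimum mean of 5, 9 with no minimum, 1 without 2K and 3K, 7 without all 3, 4 with day 33 alone and 1 to 5 with 1 library left out (1 without R, 2K, 3K or 2KR, 5 without 3KR). It called 0 lower with a pseudocount of 0.1 or at a minimum mean of 5, 1772 with no minimum, 19 without 2K and 3K, 27 without all 3, 43 with day 28 alone, 45 with day 33 alone and 12 to 19 with 1 library left out (19 without R). With the spread taken after day and diet terms limma called 0 in either direction, while 232 higher and 181 lower genes had an unadjusted p under 0.05. At a minimum mean of 5 those were 133 and 53, and 210 and 126 with a pseudocount of 0.1. In 1085 of 1109 repeats for single named genes the median difference shifted by less than the gene's standard deviation over the DSS libraries. In the other 24 the shift was at least as large, and 0 repeats reversed the sign of a gene on 1 side of C. No paired analysis was possible because each condition has 1 library. The table holds no counts, so the depth behind a single value is unknown and no counting interval is given.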

Other observations

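Genes of chaperones and cell survival were among the less conspicuous members. Of 20 measured genes of the heat shock list 5 were higher and 0 lower in all 8, against 8.31% and 8.46% of all genes. After the protein-coding scaling 1 of 20 was higher, against 2.74% of all genes. Hspa8, the constitutive cytosolic chaperone, had 424, 603 and 734 FPKM in the DSS libraries, against 336 FPKM in C. Bag3, a cofactor of such chaperones, had 13.2, 19.7 and 32.1 FPKM in the DSS libraries, against 10.2 FPKM in C. Of 20 p53 and apoptosis genes 5 were higher, against 8.31% of all genes, and among them are inhibitors of cell death. After the protein-coding scaling 2 were higher, against 2.74% of all genes. Mcl1 had 74.5, 88.0 and 108 FPKM in the DSS libraries, against 52.7 FPKM in C. Bcl2l1 had 36.2, 48.7 and 95.8 FPKM in the DSS libraries, against 27.6 FPKM in C, with 2K and 3K the highest.

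Single genes of several other lists lay on 1 side in all 8. Cebpb, a factor of the acute phase and of amino acid stress, had 6.36, 8.11 and 25.1 FPKM in the DSS libraries, against 3.33 FPKM in C. Areg, a ligand of the EGF receptor, had 2.37, 10.1 and 22.3 FPKM in the DSS libraries, against 1.87 FPKM in C, and R was the nearest to C. Guca2b, which encodes uroguanylin, had 874, 1392 and 5115 FPKM in the DSS libraries, against 549 FPKM in C, and it is the only gene of the ileal list that was higher in all 8. Cidec, a protein of lipid droplets, was likewise the only adipocyte gene on the higher side, with 35.1, 87.5 and 123 FPKM in the DSS libraries, against 28.7 FPKM in C. Dclk1, a tuft cell kinase, had 2.11, 2.84 and 5.15 FPKM in the DSS libraries, against 1.68 FPKM in C, and Trpm5, the cation channel of these cells, had 1.23, 1.58 and 2.69 FPKM in the DSS libraries, against 0.828 FPKM in C. Both tuft cell genes were low in every library.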
